A study of Mus musculus with 18 samples.

Results

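The genes described here encode subunits of the NMDA and AMPA types of ionotropic glutamate receptor in adult mouse ventral dentate gyrus. They are the NMDA receptor genes Grin1, Grin2a, Grin2b, Grin2d and Grin3a and the AMPA receptor genes Gria1, Gria2, Gria3 and Gria4, taken by symbol: 9 of the 34620 genes listed in the count files. All 9 passed the filter on low counts, as did 17421 genes in all. RNA-Seq was performed on 6 libraries of the granule cell layer, microdissected from frozen sections of male Swiss Webster mice aged 8 to 12 weeks, to ask what a mother with reduced serotonin 1A receptor leaves in the neurons of her descendants. WT males (2 libraries) had a WT mother and a WT grandmother. F1 males (2 libraries) are labelled with a 5HT1A-/+ mother and a 5HT1A-/+ grandmother and carried 2 intact copies of the serotonin 1A receptor gene themselves. By the paper's methods, F1 mice came from crosses between 5HT1A-/+ parents, with 5HT1A-/+ and knockout littermates. The F1 and WT groups thus differed in the father as well as the mother. F2 males (2 libraries) were born to WT daughters of 5HT1A-/+ mothers, mated to WT males, so that mother and offspring were WT and the grandmother was 5HT1A-/+. The mice came from at least 3 litters, the number of animals behind a library is not given in the sources used here, and p-values measure the spread between libraries only.

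Ionotropic glutamate receptors are tetramers that open a cation channel when glutamate binds. AMPA receptors carry most of the fast excitatory current at central synapses, and NMDA receptors need glutamate and a co-agonist, pass calcium, and are blocked by magnesium until the membrane depolarizes. Every NMDA receptor contains the obligatory subunit encoded by Grin1, Grin2 genes supply the glutamate-binding partners and set channel kinetics, and Grin3 genes encode glycine-binding subunits that lower calcium passage and magnesium block.

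The families differ at a single codon in the narrowest part of the pore, and that codon is printed in capitals below for 8 members with 15 bases on either side, because it separates Grin3a from the other NMDA receptor members shown and marks the site of RNA editing in Gria2. Sequences are from the mm9 genome, written 5′ to 3′ along the strand of the gene, and each lies in a coding exon.
Grin1: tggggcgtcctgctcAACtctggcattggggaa
Grin2a: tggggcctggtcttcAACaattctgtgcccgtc
Grin2d: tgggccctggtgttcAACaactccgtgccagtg
Grin3a: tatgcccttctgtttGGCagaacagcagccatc
Gria1: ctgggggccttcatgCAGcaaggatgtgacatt
Gria2: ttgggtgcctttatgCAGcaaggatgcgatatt
Gria3: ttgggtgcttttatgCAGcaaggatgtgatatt
Gria4: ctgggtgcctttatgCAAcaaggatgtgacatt
These stretches are at chr2:25152891-25152923 on the minus strand for Grin1, chr16:9653639-9653671 (minus) for Grin2a, chr7:53109748-53109780 (minus) for Grin2d and chr4:49783441-49783473 (minus) for Grin3a. The AMPA receptor stretches are at chr11:57056581-57056613 on the plus strand for Gria1, chr3:80510818-80510850 (minus) for Gria2, chrX:38963427-38963459 (plus) for Gria3 and chr9:4464122-4464154 (minus) for Gria4. Grin1, Grin2a and Grin2d have the asparagine codon AAC at which magnesium blocks, whereas Grin3a has the glycine codon GGC. The AMPA receptor genes have a glutamine codon, CAG or CAA, and in Gria2 RNA its adenosine is the one edited by the enzyme encoded by Adarb1, which makes the channel nearly impermeable to calcium. Gene counts do not measure editing or separate splice forms.

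The 6 libraries held between 26358165 and 33727936 reads counted on genes, and levels are given as CPM, read counts standardized to a common total of reads on genes and scaled by TMM factors between 0.982 and 1.02. The share of uniquely aligned reads that did not lie wholly within annotated exons was 17.7% and 20.7% in WT, 13.8% and 12.2% in F1, and 13.9% and 17.4% in F2. All 6 granule cell markers checked (Prox1, C1ql2, Dsp, Calb1, Dock10 and Plk5) were detected in every library, as were the markers of 7 other cell types, so RNA of other cells was present. The serotonin 1A receptor gene Htr1a, of which all animals carried WT alleles so that it does not check the labels, was at 62.2 and 55.7 CPM in WT, 49.4 and 55.1 CPM in F1, and 68.6 and 66.6 CPM in F2. In bulk tissue, fewer cells of a type and less RNA per cell cannot be told apart.

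Grin3a rose in both F1 and F2. It was the single member to pass the threshold (adjusted p under 0.01 by edgeR's exact test) in either comparison, 1 of 9 in F1 and 1 of 9 in F2. Of all genes tested, 12.3% passed in F1 and 12% in F2, so the members' share was near the background. By the quasi-likelihood test 0 of 9 passed in F1 and 1 of 9 in F2, beside 5.91% and 5.72% of all genes, and DESeq2 called 1 of 9 in each. Grin3a rose in both comparisons, as did 1.60% of all genes. No member differed between F2 and F1 by edgeR (0 of 9, against 0.740% of all genes), and 1 of 9 did so at an unadjusted p under 0.05. The quasi-likelihood test and DESeq2 likewise called 0 of 9 there, and the quasi-likelihood test called 0.0115% of all genes. The median log2 fold change over the 9 members was -0.06 in F1 and 0.05 in F2, beside 0.0094 and -0.0004 over all genes. The median size of the change, regardless of sign, was 0.09 and 0.12, beside 0.25 and 0.26 over all genes. The libraries of F1 lay wholly above or wholly below those of WT for 4 of the 9 members, and those of F2 for 5 of the 9, where 60.4% and 63.0% of all genes did. F1 and F2 were set against the same WT libraries.

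**Figure D1:**
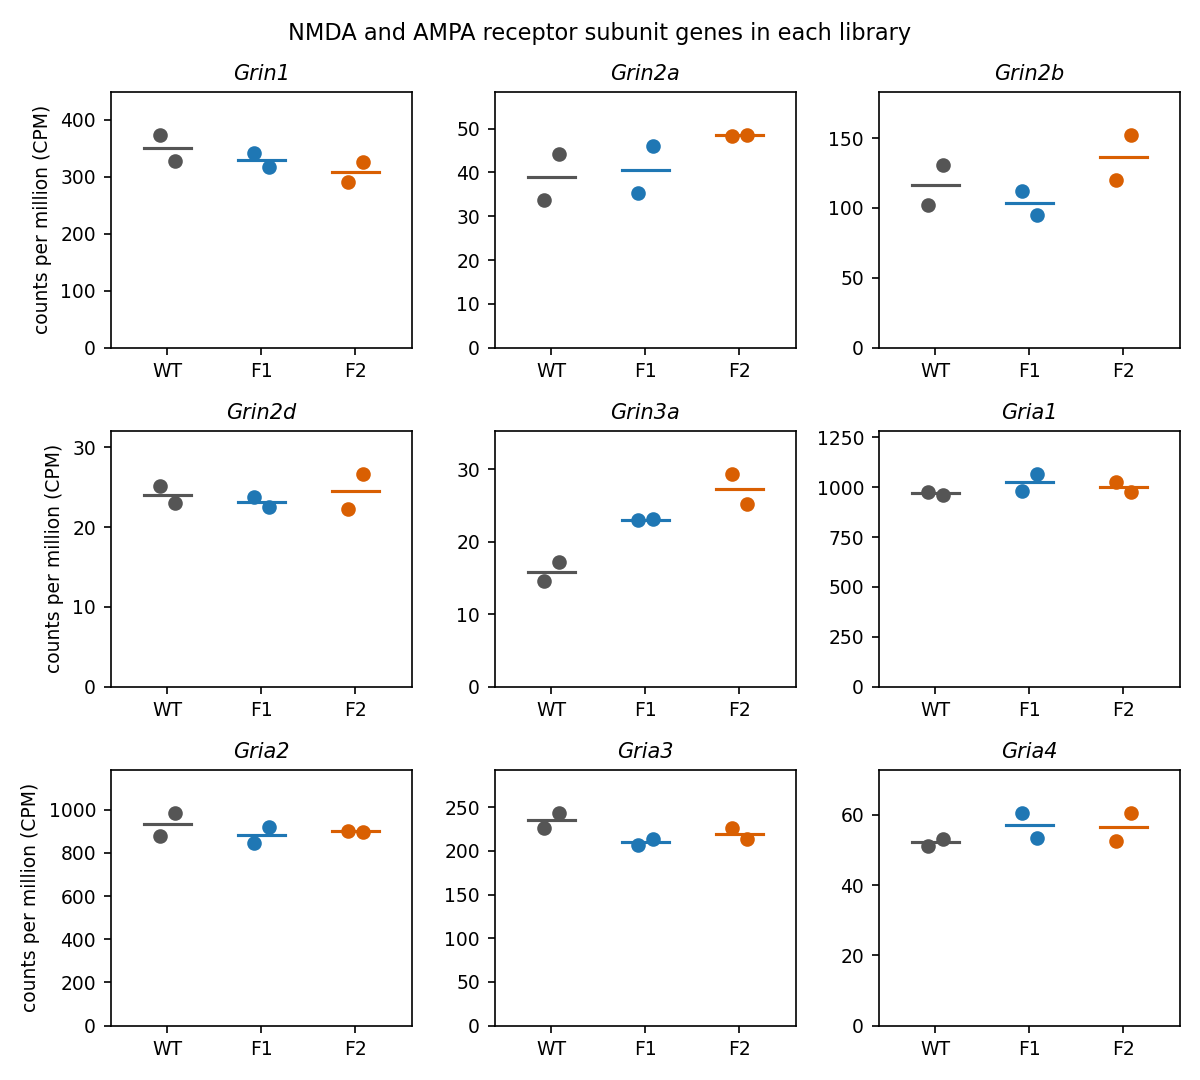
Level of each NMDA and AMPA receptor subunit gene in CPM (y axes start at 0 and differ between panels) in the WT, F1 and F2 libraries. Points are libraries and horizontal bars are means of 2 libraries. For Grin3a the WT libraries sit at 14.6 and 17.2 CPM, below all F1 and F2 libraries.

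Grin3a, which lies on chromosome 4 from 49674483 to 49858616 on the minus strand (mm9), was at 14.6 and 17.2 CPM in WT, 23.0 and 23.1 CPM in F1, and 29.4 and 25.2 CPM in F2. Both WT libraries were below all 4 F1 and F2 libraries, as was the case for 21.0% of all genes tested, and the F1 libraries were below the F2 libraries. The counts behind these values ran from 488 to 786 reads per library. In F1 the level was 1.45-fold that of WT, with a log2 fold change of 0.54 (SE 0.16, adjusted p = 0.00586 by edgeR's exact test). In F2 it was 1.72-fold that of WT, with a log2 fold change of 0.78 (SE 0.16, adjusted p = 2.03e-05 by edgeR's exact test). F2 and F1 were not shown to differ, at 0.24 on the log2 scale (95% interval -0.06 to 0.55, adjusted p = 0.755 by edgeR). The F1 call was lost by edgeR's quasi-likelihood test (adjusted p = 0.0198), without WT 1 (log2 fold change 0.43, adjusted p = 0.149), and at adjusted p of 0.0197, 0.0367, 0.0118 and 0.0106 without F1 1, F1 2, F2 1 and F2 2. The F2 call held by the quasi-likelihood test (adjusted p = 0.00355) and was lost without WT 1 (0.67, adjusted p = 0.0122) and without F2 1 (0.67, adjusted p = 0.0157).

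Markers of other cells moved beside Grin3a. Of the 6 markers of oligodendrocyte precursors, 3 rose in F1 (Gpr17, Olig1 and Pdgfra) and 2 in F2 (Olig1 and Pdgfra). The quasi-likelihood test called 1 in F1 (Gpr17) and 1 in F2 (Pdgfra). Their summed level was 121 and 133 CPM in WT, 186 and 190 CPM in F1, and 166 and 206 CPM in F2, so that the F1 and F2 libraries were above both WT libraries. Pdgfra, the growth factor receptor that defines these precursors, was at 16.3 and 23.3 CPM in WT, 28.9 and 35.0 CPM in F1, and 36.2 and 36.6 CPM in F2. Pdgfra rose by a log2 fold change of 0.69 (SE 0.18, adjusted p = 0.00131 by edgeR) in F1 and 0.88 (SE 0.18, adjusted p = 2.28e-05 by edgeR) in F2. Gpr17 differed from Grin3a in order, with F2 below F1. It was at 20.0 and 19.9 CPM in WT, 34.1 and 36.0 CPM in F1, and 25.9 and 28.4 CPM in F2. Cspg4, Olig2 and Sox10 had positive log2 fold changes and passed in neither comparison. Of the 8 interneuron markers, Slc32a1, the vesicular GABA transporter, rose in F1 (log2 fold change 0.65) and F2 (0.61), and Gad2, a GABA-synthesizing enzyme, rose in F2 (0.56, and 0.36 in F1, where it did not pass). The other 6 did not pass. Among them Sst and Npy, both neuropeptide genes, were at 0.03 and -0.15 in F1 and at -0.39 and -0.31 in F2. Gad1, Vip and Lhx6 were positive in both, at 0.10, 0.05 and 0.34 in F1 and at 0.25, 0.32 and 0.15 in F2. Pvalb was at 0.02 in F1 and -0.01 in F2. Summed interneuron markers were at 649.9 and 719 CPM in WT, 876 and 633 in F1, and 726 and 809 in F2, so that F1 overlapped with WT and both F2 libraries were above it. Summed astrocyte markers were at 694 and 748 CPM in WT, 796 and 1114 in F1, and 1193 and 925 in F2. Summed microglial markers were at 97.0 and 98.8 CPM in WT, 114 and 131 in F1, and 148 and 126 in F2. For both of these lists, and for the endothelial markers (65.3 and 69.9 CPM in WT, 72.3 to 92.5 CPM in the other 4 libraries), the WT libraries were the lowest. Oligodendrocyte markers were at 1063 and 1939 CPM in WT and between 1475 and 2866 in the other libraries. Granule cell markers were at 1049 and 1032 CPM in WT, 865 and 1038 in F1, and 1220 and 1144 in F2. Markers of mossy cells and CA fields were at 415 and 458 CPM in WT and between 353 and 457 in the other libraries. Of the remaining lists, 1 of 5 astrocyte, 0 of 5 microglial, 0 of 4 endothelial and 2 of 6 oligodendrocyte markers rose in F1, and 2, 3, 1 and 1 did so in F2, while 1 of 6 granule cell markers (Plk5) fell in both. By the quasi-likelihood test, 0 of the astrocyte, microglial, endothelial and oligodendrocyte markers passed in F1, and 1, 0, 1 and 0 did so in F2. For interneuron markers that test called 1 in F1 and 2 in F2, and for granule cell markers 1 and 0. Of the 8 markers of mossy cells and CA fields, 2 rose and 1 fell in F1, and 1 rose and 2 fell in F2. The quasi-likelihood test called 1 of these 8 in F1 and 1 in F2. Of all genes tested, 3.77% rose and 8.54% fell in F1, and 3.86% and 8.10% did so in F2. The quasi-likelihood test called 5.91% of all genes in F1 and 5.72% in F2. No marker of any list was at 0 in any library. The part of these cells in the rise of Grin3a was not tested.

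**Figure D2:**
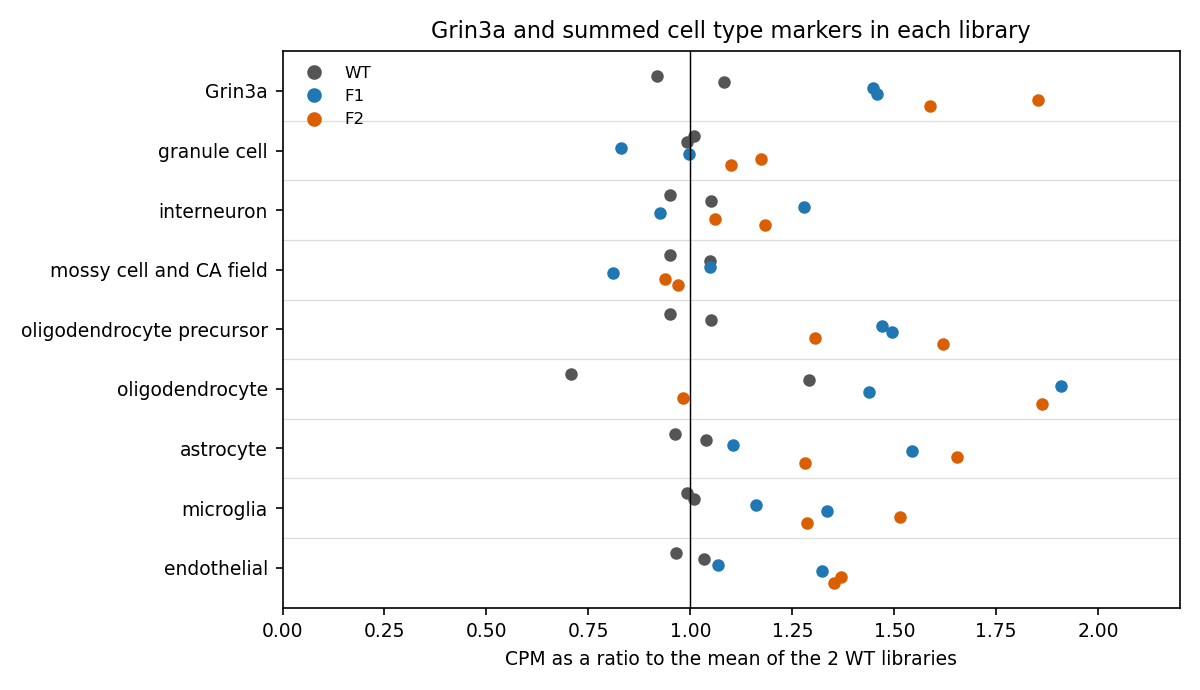
Grin3a and the summed markers of each cell type in each library, as a ratio to the mean of the 2 WT libraries (x axis, linear, with 1 marking that mean). Points are libraries, coloured by group. Grin3a and the oligodendrocyte precursor markers (121 and 133 CPM in WT against 166 to 206 in F1 and F2) are above WT in all F1 and F2 libraries. The same holds for the astrocyte, microglial and endothelial markers. Interneuron markers overlap between WT and F1 and are above WT in F2.

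Grin1, the obligatory subunit, was at 374 and 327 CPM in WT, 341 and 317 CPM in F1, and 291 and 326 CPM in F2. The F1 libraries overlapped with WT. Both F2 libraries lay below both WT libraries, F2 2 only narrowly (326 against 327 CPM in WT 2). Its log2 fold changes were -0.09 (95% interval -0.33 to 0.15) in F1 and -0.18 (-0.43 to 0.06) in F2, neither of which passed. Grin1 shares 1307 exon bases with E130003G02Rik on the opposite strand, and the library kit does not mark strand, so reads of these bases cannot be told apart. Reads ambiguous between genes are not in the counts, and the strand setting used for counting is not stated.

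Grin2a and Grin2b encode the main glutamate-binding subunits of the forebrain. Grin2a was at 33.8 and 44.2 CPM in WT, 35.3 and 45.9 CPM in F1, and 48.4 and 48.6 CPM in F2. The WT and F1 libraries spanned the same range, and both F2 libraries were above it. Its log2 fold change was 0.06 (95% interval -0.25 to 0.38) in F1 and 0.32 (0.0014 to 0.63, adjusted p = 0.155 by edgeR) in F2, where it was 0.14 without WT 1 and 0.53 without WT 2. Grin2b was at 102 and 131 CPM in WT, 112 and 94.9 CPM in F1, and 120.0 and 152 CPM in F2. WT overlapped with both other groups, and the F1 libraries were below the F2 libraries. The log2 fold change of Grin2b was -0.17 (95% interval -0.47 to 0.14) in F1 and 0.23 (-0.08 to 0.54) in F2, and F2 minus F1 was 0.40 (0.09 to 0.70, unadjusted p = 0.0115, adjusted p = 0.297 by edgeR), which did not pass.

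Grin2d, whose subunit gives slowly deactivating receptors and is associated with interneurons in the adult hippocampus, was at 25.1 and 23.1 CPM in WT, 23.7 and 22.6 CPM in F1, and 22.2 and 26.7 CPM in F2. The groups overlapped. The log2 fold changes were -0.06 (95% interval -0.35 to 0.24) and 0.02 (-0.27 to 0.32).

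No AMPA receptor member passed. By edgeR's exact test the count was 0 of 4 in F1, in F2 and between F2 and F1, 0 of 4 passed at an unadjusted p under 0.05, and the quasi-likelihood test and DESeq2 called 0 of 4. Gria1 and Gria2 encode the subunits that form most AMPA receptors of principal neurons. Gria1 was at 976 and 963 CPM in WT, 981 and 1069 CPM in F1, and 1026 and 978 CPM in F2. The F1 and F2 libraries were all above WT, as for 21.0% of all genes. F2 2 exceeded WT 1 only narrowly (978 against 976 CPM). The log2 fold changes of Gria1 were 0.08 (95% interval -0.14 to 0.30) and 0.05 (-0.18 to 0.27). Gria2 was at 877 and 986 CPM in WT, 844 and 919 CPM in F1, and 900.2 and 898 CPM in F2. The F2 libraries fell between the WT libraries, and the log2 fold changes were -0.08 (95% interval -0.31 to 0.15) and -0.05 (-0.28 to 0.18). Gria3, an X-linked subunit gene, was at 227 and 244 CPM in WT, 207 and 214 CPM in F1, and 226 and 213 CPM in F2. All 4 F1 and F2 libraries were below WT, as for 23.7% of all genes, with log2 fold changes of -0.16 (95% interval -0.38 to 0.06) and -0.10 (-0.32 to 0.13). Gria4, a subunit with fast gating that is prominent in interneurons and early development, was at 51.2 and 53.2 CPM in WT, 60.5 and 53.4 CPM in F1, and 52.5 and 60.6 CPM in F2. F2 overlapped with WT, F1 lay above it by a small margin, and the log2 fold changes were 0.13 (95% interval -0.12 to 0.38) and 0.12 (-0.13 to 0.37). Summed AMPA receptor CPM ran from 2092 to 2255 over the 6 libraries.

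**Figure D3:**
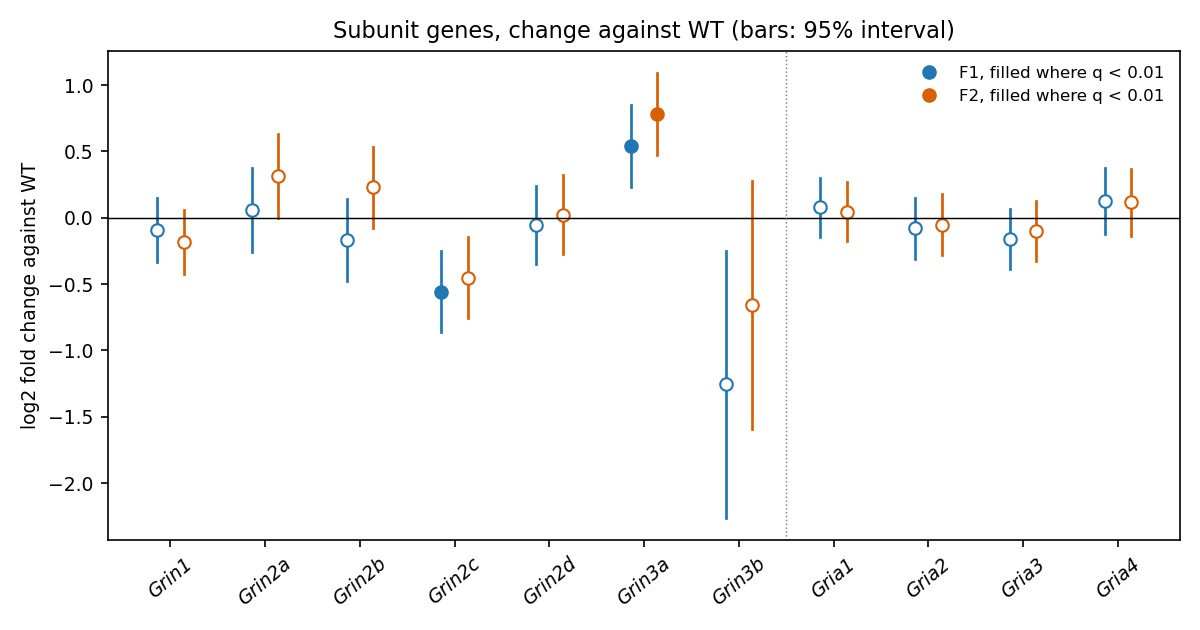
Log2 fold change of each subunit gene against WT in F1 and F2 (y axis), with 95% intervals as bars and filled points where the adjusted p is under 0.01. Grin2c and Grin3b, which are not among the 9 genes, are drawn for comparison. Grin3a is filled in both comparisons (0.54 and 0.78), and the intervals of all 4 AMPA receptor genes include 0.

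The other NMDA receptor subunit genes are Grin2c and Grin3b. Grin2c, which encodes a subunit best known from cerebellar granule cells and glia, was at 47.7 and 35.6 CPM in WT, 27.4 and 29.3 CPM in F1, and 29.0 and 31.9 CPM in F2. Both WT libraries were above all others, although WT 1 and WT 2 were farther apart than the F1 and F2 libraries. It fell in F1 with a log2 fold change of -0.56 (SE 0.16, adjusted p = 0.00401 by edgeR) and was at -0.45 in F2 (SE 0.16, adjusted p = 0.0241 by edgeR), which did not pass. The F1 call was lost by the quasi-likelihood test (adjusted p = 0.0204), without WT 1 (-0.33, adjusted p = 0.212), and without F1 1, F1 2, F2 1 or F2 2 (adjusted p of 0.0515, 0.0292, 0.0112 and 0.0116), while the F2 value was -0.22 without WT 1 (adjusted p = 0.476) and passed without WT 2 (-0.64, adjusted p = 0.00221). Grin3b was at 0.647 and 0.528 CPM in WT and between 0.198 and 0.445 CPM in F1 and F2, and passed in neither comparison. It shares 1059 exon bases with ORF61 on the opposite strand, so its counts are uncertain.

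Levels of different genes were compared as RPKM, the CPM per kilobase of the transcript with the longest coding sequence. Gria1 was highest, at 180.1 ± 7.30 RPKM (mean ± SD of 6 libraries), followed by Gria2 (130.0 ± 6.84), Grin1 (77.1 ± 6.39), Gria3 (42.7 ± 2.55) and Grin2b (22.6 ± 3.98). Below them were Gria4 (10.1 ± 0.768), Grin2a (8.86 ± 1.36), Grin2c (7.82 ± 1.76), Grin2d (4.40 ± 0.313), Grin3a (2.95 ± 0.720) and Grin3b (0.122 ± 0.0514). Over the 6 libraries, the ranges of Gria4 and Grin2a overlapped, as did those of Grin2a and Grin2c, and all other neighbours in this order were separate. Using the union of all annotated exons as length gave the same order at lower levels, such as 34.0 RPKM for Grin1, 22.5 for Gria3 and 1.40 for Grin3a.

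**Figure D4:**
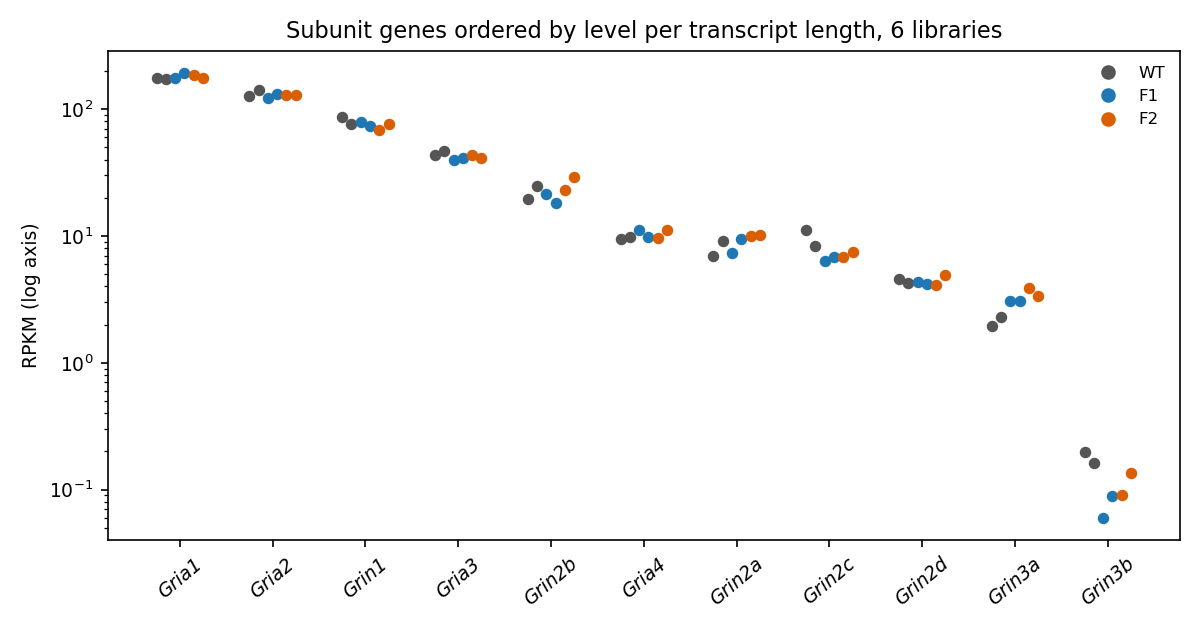
Level of each subunit gene per kilobase of transcript (RPKM, log axis), ordered from highest to lowest, with a point for each of the 6 libraries coloured by group. Gria1 is highest at 180.1 RPKM on average, and Grin3a, at 2.95 RPKM, is next to last.

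Grin3a made up a small part of NMDA receptor subunit transcripts. Its share of the summed length-scaled level of all 7 NMDA receptor genes was 1.48% and 1.82% in WT, 2.50% and 2.66% in F1, and 3.38% and 2.56% in F2. All F1 and F2 libraries were above WT. Relative to Grin1, the level of Grin3a per kilobase was 2.22% and 3.0% in WT, 3.84% and 4.16% in F1, and 5.76% and 4.41% in F2. Grin1 itself made up 66.4% and 60.9% of the sum in WT, 65.2% and 63.9% in F1, and 58.8% and 58.1% in F2, where both values were below those of the other groups. The share of Grin2c was 8.45% and 6.62% in WT and between 5.23% and 5.90% in F1 and F2. The ratio of Grin2b to Grin2a per kilobase overlapped between groups, from 2.72 to 2.77 in WT, 1.90 to 2.92 in F1 and 2.28 to 2.88 in F2. Among AMPA receptor genes, Gria1 held between 46.7% and 51.3% and Gria2 between 34.8% and 38.1% of the sum in each library. Gria3 held 12.3% and 12.6% in WT and between 11% and 11.8% in F1 and F2. The sum of the AMPA receptor genes was 2.70 and 2.96 times that of the NMDA receptor genes in WT, 2.85 and 3.24 times in F1, and 3.17 and 2.72 times in F2. With union exon length this ratio was higher, at 4.41 and 4.75 in WT, 4.72 and 5.28 in F1, and 5.06 and 4.35 in F2. Grin2b to Grin2a was then between 1.34 and 2.06, and Grin3a relative to Grin1 was 2.39% and 3.23% in WT, 4.14% and 4.48% in F1, and 6.20% and 4.75% in F2. The shares and ratios are a description and were not tested.

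Genes that serve the receptors were read from lists of 62 genes, of which 61 were measured and passed the filter. In F1 7 rose and 1 fell, beside 3.77% of all genes rising and 8.54% falling. In F2 8 rose and 1 fell, beside 3.86% and 8.10% of all genes. In either direction 12.3% of all genes passed in F1 and 12% in F2, so the share of the 61 genes with both directions pooled was near the background. Taken apart, the share that rose was above that of all genes, and the share that fell was below it. The lists were chosen with earlier results of these data known, so this split is a description and was not tested. By the quasi-likelihood test 3 of 61 passed in F1 and 4 of 61 in F2, beside 5.91% and 5.72% of all genes. The median log2 fold change over the 61 genes was 0.16 in F1 and 0.14 in F2, beside 0.0094 and -0.0004 over all genes.

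Of the 13 auxiliary subunits of AMPA receptors, which steer their trafficking and gating, 2 rose (Cacng5 and Cnih3) and 1 fell (Shisa7) in F1, and 4 rose (Cacng5, Cacng7, Cnih3 and Shisa9) and 0 fell in F2. The quasi-likelihood test called 0 of 13 in F1 and 2 of 13 in F2. By edgeR at an unadjusted p under 0.05, 7 were higher and 1 lower in F1, and 5 higher and 1 lower in F2. The list's median log2 fold change was 0.29 and 0.16. Cnih3, a cornichon protein that slows AMPA receptor closing, was at 76.5 and 68.3 CPM in WT, 99.0 and 96.0 CPM in F1, and 108 and 102 CPM in F2, with no overlap between WT and the others. Its log2 fold change was 0.43 (SE 0.12, adjusted p = 0.00366 by edgeR) in F1 and 0.54 (SE 0.12, adjusted p = 0.00017 by edgeR) in F2. The quasi-likelihood test kept the F2 call (adjusted p = 0.00504) and lost that in F1 (0.0141), and calls were lost without WT 2 (adjusted p = 0.0883 in F1 and 0.0163 in F2), F1 1 or F1 2 (0.0239 and 0.0204 in F1) and F2 1 (0.0242 in F2). Cacng5, a member of the TARP family, was at 5.44 and 5.35 CPM in WT, 7.33 and 12.3 CPM in F1, and 8.75 and 11.2 CPM in F2. Both WT libraries were the lowest, and the log2 fold changes were 0.86 (SE 0.26, adjusted p = 0.00748 by edgeR) and 0.89 (SE 0.26, adjusted p = 0.00593 by edgeR). Both calls were lost by the quasi-likelihood test (adjusted p = 0.0287 and 0.0268) and without either WT library (0.0814 and 0.0753 in F1, 0.0800 and 0.0645 in F2). The F1 call was also lost without F1 2 (log2 fold change 0.45, adjusted p = 0.249), F2 1 (0.0119) or F2 2 (0.0122), and the F2 call without F2 1 (0.0161) or F2 2 (0.146).

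Of the 19 postsynaptic scaffold proteins and partners, which hold receptors at the synapse, 3 rose (Dlg2, Dlgap3 and Neto1) and 0 fell in F1 (5 higher and 1 lower by edgeR at an unadjusted p under 0.05), and 1 rose (Dlg2) and 1 fell (Pick1) in F2. The quasi-likelihood test called 2 of 19 in F1 and 1 of 19 in F2. The median log2 fold change was 0.11 and 0.13. Dlg2, which encodes the scaffold PSD-93, was at 71.5 and 81.5 CPM in WT, 107 and 146 CPM in F1, and 144 and 125 CPM in F2. WT was below all other libraries, with log2 fold changes of 0.73 (SE 0.15, adjusted p = 5.5e-05 by edgeR) in F1 and 0.82 (SE 0.15, adjusted p = 4.52e-06 by edgeR) in F2. The F1 call was lost without WT 1 (adjusted p = 0.0157) or F1 2 (0.0168). Neto1, an auxiliary protein of kainate receptors that also binds NMDA receptors, was at 56.6 and 51.1 CPM in WT, 87.5 and 97.5 CPM in F1, and 62.6 and 67.2 CPM in F2. F2 lay between WT and F1. It rose in F1 (log2 fold change 0.78, SE 0.12, adjusted p = 1.3e-08 by edgeR), had 0.27 in F2 (SE 0.12, adjusted p = 0.104 by edgeR), and was lower in F2 than in F1, as were 0.436% of all genes (-0.51, SE 0.12, adjusted p = 0.00476 by edgeR). That difference was lost by the quasi-likelihood test (adjusted p = 0.0863) and without F1 2 (0.0716), F2 1 (0.477) or F2 2 (0.0632).

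Of the 13 kinases and phosphatases that act on the receptors, 1 rose and 0 fell in F1, and 0 passed in F2. By edgeR at an unadjusted p under 0.05, 4 were higher and 0 lower in F1 and 2 higher and 1 lower in F2, and in F2 the quasi-likelihood test called 0 and DESeq2 called 1. The median log2 fold change was 0.14 in F1 and 0.09 in F2. Prkca, a protein kinase C gene, was at 136 and 133 CPM in WT, 181 and 196 CPM in F1, and 123 and 135 CPM in F2. F1 was above all other libraries, with a log2 fold change of 0.48 (SE 0.12, adjusted p = 0.000562 by edgeR), and F2 was at -0.06 (95% interval -0.29 to 0.17). F2 was lower than F1 by -0.55 on the log2 scale (SE 0.12, adjusted p = 0.000721 by edgeR). The rise in F1 was lost without WT 1 (adjusted p = 0.0144), WT 2 (0.0181) or F1 2 (0.0219), and the difference from F2 by the quasi-likelihood test (0.0484) and without F1 2 (0.0231), F2 1 (0.285) or F2 2 (0.0145).

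Of the 3 RNA editing enzymes, 0 passed in either comparison by edgeR's exact test, the quasi-likelihood test or DESeq2, with 1 higher in F1 and 2 higher in F2 at an unadjusted p under 0.05. Their median log2 fold change was -0.05 in F1 and 0.31 in F2. Adarb1 was at 157 and 132 CPM in WT, 163 and 235 CPM in F1, and 182 and 203 CPM in F2. WT was below all other libraries, and the F1 libraries were far apart. Its log2 fold change was 0.46 (SE 0.16, adjusted p = 0.0268 by edgeR) in F1 and 0.42 (SE 0.16, adjusted p = 0.0493 by edgeR) in F2. In F1 the value was 0.18 without F1 2 (adjusted p = 0.498) and 0.35 without WT 2 (0.270), and it passed at 0.72 without F1 1 (4.79e-05). In F2 it was 0.31 without WT 2 (adjusted p = 0.343), and it passed without F1 1 (0.00524) or F1 2 (0.00526).

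Of the 5 genes listed for supply and uptake of the co-agonists glycine and D-serine, 1 rose and 0 fell in F1, while 0 passed in F2. By edgeR at an unadjusted p under 0.05, 1 was higher and 0 lower in F1 and 2 higher and 0 lower in F2, and the quasi-likelihood test and DESeq2 called 0 in F2. Over the list, the median log2 fold change was 0.19 in F1 and 0.18 in F2. Slc1a4, a neutral amino acid transporter that carries serine, was at 34.0 and 31.5 CPM in WT, 45.0 and 44.9 CPM in F1, and 40.2 and 39.6 CPM in F2, with no overlap between groups. Slc1a4 had a log2 fold change of 0.46 (SE 0.12, adjusted p = 0.00315 by edgeR) in F1 and 0.29 (SE 0.13, adjusted p = 0.0899 by edgeR) in F2. The F1 call was lost by the quasi-likelihood test (adjusted p = 0.0128) and without WT 1 (0.0181), WT 2 (0.0658), F1 1 (0.0141) or F1 2 (0.0228).

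Of the 8 genes of glutamate transport and metabolism, 0 passed in F1, and 3 rose (Glul, Slc1a2 and Slc17a6) and 0 fell in F2, where the quasi-likelihood test called 1. In F1, edgeR had 2 higher and 0 lower at an unadjusted p under 0.05, and the quasi-likelihood test and DESeq2 called 0. The median log2 fold change was 0.20 in F1 and 0.23 in F2. Glul, the glutamine synthetase of astrocytes, was at 455 and 368 CPM in WT, 495 and 566 CPM in F1, and 625 and 610.0 CPM in F2, so that the groups did not overlap. Glul had a log2 fold change of 0.37 (SE 0.13, adjusted p = 0.0312 by edgeR) in F1 and 0.59 (SE 0.13, adjusted p = 0.000207 by edgeR) in F2. The F2 call was lost without WT 2 (adjusted p = 0.0303) or F2 1 (0.0161). Summed astrocyte markers, which were lowest in WT (694 and 748 CPM) and at 1193 and 925 CPM in F2, moved beside it, and their part in the rise was not tested.

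**Figure D5:**
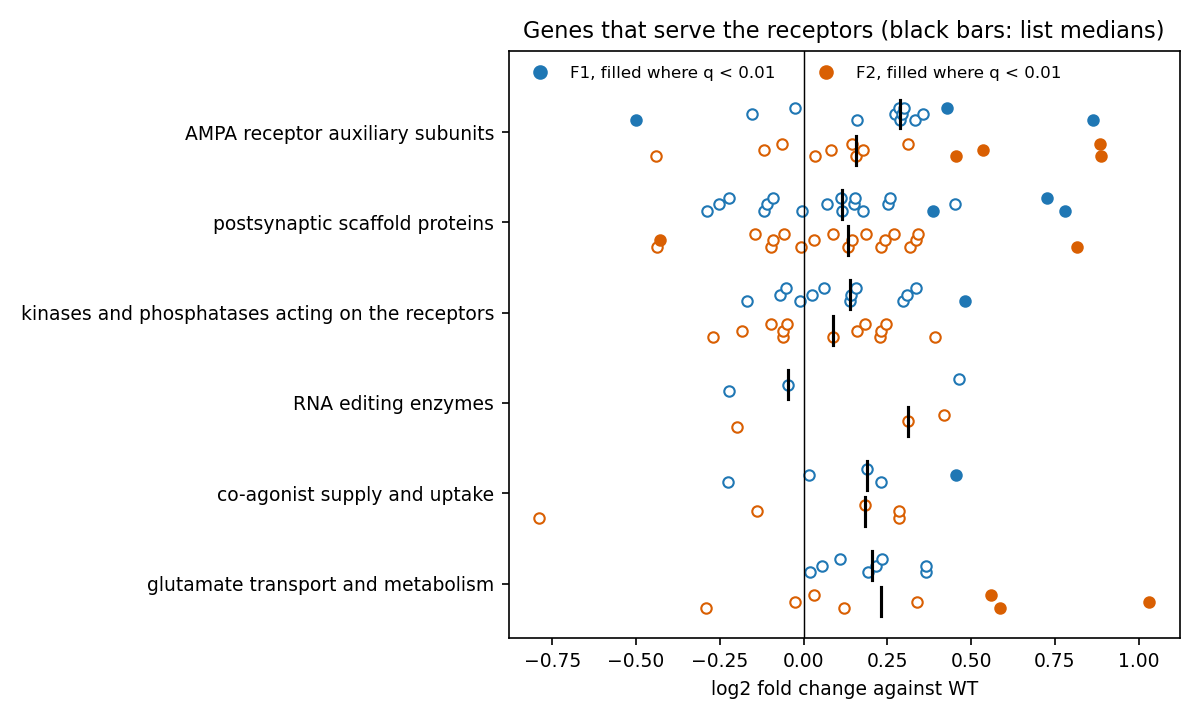
Log2 fold change against WT (x axis) of genes in 6 lists of proteins that serve the receptors, with F1 above and F2 below in each list. Points are genes, filled where the adjusted p is under 0.01, and black bars are list medians. The AMPA receptor auxiliary subunits have medians of 0.29 in F1 and 0.16 in F2.

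The genes whose pattern over the 6 libraries was most like that of Grin3a, by the root mean square difference of centred log2 CPM among 14658 genes, were 2010011I20Rik (0.0342), Kcne1l (0.0391) and Zfp748 (0.0492), where the median gene differed by 0.351. 2010011I20Rik was at 15.1 and 16.9 CPM in WT, 24.2 and 23.5 CPM in F1, and 29.3 and 26.3 CPM in F2. That it repeats the order of the groups in Grin3a follows from its choice by pattern.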

How the data were processed

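RNA-Seq libraries (TruSeq RNA kit, single-end reads of 50 bp) were aligned by the authors to mm9 with TopHat, without a search for new junctions, and the deposited values are HTSeq counts per gene in intersection-strict mode, not normalized. Reads that aligned to several places or did not lie wholly within exons are not in these counts, so genes with near-identical copies are undercounted. Reads ambiguous between genes, 1.33% to 1.53% of uniquely aligned reads, are also left out. The bisulfite libraries were not analysed here.

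Groups follow the labels. Counts were filtered with filterByExpr, scaled by TMM, and tested by the exact test of edgeR 4.0.16 (R 4.3.3), two-sided, with common and tagwise dispersion over all 3 groups and Benjamini-Hochberg adjustment over 17421 genes; the threshold was 0.01. The paper's methods name edgeR but no function. SEs follow by the delta method, and 95% intervals are 1.96 SEs either way. They take the estimated dispersion as known, so the intervals can be too narrow. That of Grin2a in F2 excluded 0, while its unadjusted p was 0.05015 by edgeR's exact test. The quasi-likelihood test and DESeq2 1.42.0 were alternatives. These, the exact test and the likelihood-ratio test with a replicate block were tried on simulated counts, for F1 against WT only. The simulation gave every gene the same dispersion, so it cannot give the rate of false calls in these data. The other alternatives were not simulated. Replicates of a group were not duplicates (chi-square per degree of freedom 23.0 in WT, 18.5 in F1 and 22.3 in F2). Precision is limited by the 2 libraries per group and, for low genes such as Grin3b (6 to 22 reads per library), by counting error.

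Lengths, positions and sequences came from the mm9 genome and the GENCODE annotation of that build, which held 33294 of the symbols. Genes named are the 9 members, the remaining NMDA receptor subunits, from each list the genes past the threshold in both comparisons (at most 4), with the smallest adjusted p added where fewer than 2 passed, the 3 genes nearest in pattern to a member that passed in both, and markers moving with a member. Other genes counted in a list are named because they passed, or as markers given beside those that did, after their values were seen. The members and lists were chosen with earlier results of these data known. Of the list genes, 1 was not analysed here, and Frrs1l was matched as 6430704M03Rik.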

Additional observations from a re-analysis of the deposited data

Results flagged for a closer look

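Neto1 and Prkca differed between F2 and F1 by edgeR's exact test. The log2 fold change of F2 against F1 was -0.51 for Neto1 (-0.5113 before rounding, adjusted p = 0.00476 by edgeR) and -0.55 for Prkca (-0.5451 before rounding, adjusted p = 0.000721 by edgeR). By the quasi-likelihood test neither passed (adjusted p = 0.0863 and 0.0484). No group held enough libraries for a test of single outlying values.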

How the results depend on the processing

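Grin3a was higher in F1 and F2 under all 19 alternatives (log2 fold change 0.43 to 0.67 in F1 and 0.67 to 0.92 in F2). It kept its call in 7 of 19 in F1 and 17 of 19 in F2.

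Members past the threshold in F1 went from 1 to 0 by the quasi-likelihood test without and with a replicate block, by the likelihood-ratio test with the block, with library totals alone, with a mean of at least 50 counts, with dispersion from the groups compared, and with a correction for GC content and length plus the block, and ranged from 0 to 1 without single libraries (F1 and F2 comparisons). Genes past the threshold numbered 2144 in F1, 2084 in F2 and 129 between F2 and F1. They numbered 1029, 997 and 2 by the quasi-likelihood test, 848, 758 and 9 by that test with a replicate block, 1743, 1758 and 117 by the likelihood-ratio test with a replicate block, 3623, 3606 and 230 at 0.05, and 988 to 2043, 703 to 2585 and 52 to 223 without single libraries, lowest without WT 1 in F1 and without F2 1 in the others. Replicate numbers did not pair the samples (correlations of deviations -0.0086, -0.09 and -0.23). With the numbers of F2 crossed, the likelihood-ratio test with the block called 2679 genes in F1, 2752 in F2 and 233 between F2 and F1. It then called 1 member in F1. The block changed no member's call in F2.

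Values not past the threshold changed sign. With the GC correction, without and with the block, Grin1 was at 0.078 and 0.077 and Grin2d at 0.068 and 0.068 in F1, and Gria1 at -0.025 and -0.025 in F2, and without the block Grin2a was at -0.0015 in F1. Grin2d in F2 was at -0.0044 with at least 50 counts, and Gria4 between F2 and F1 at 0.0082 with upper-quartile scaling. Without single libraries, F1 values ranged from -0.17 to 0.010 for Grin1, -0.13 to 0.28 for Grin2a, -0.33 to 0.035 for Grin2b, -0.11 to 0.0080 for Grin2d and -0.16 to 0.017 for Gria2. F2 values ranged from -0.11 to 0.15 for Grin2d, -0.13 to 0.045 for Gria2 and -0.12 to 0.0083 for Prkca. Values between F2 and F1 ranged from -0.059 to 0.21 for Grin2d, -0.095 to 0.033 for Gria1, -0.033 to 0.093 for Gria2 and -0.12 to 0.094 for Gria4. The cause was not tested.

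Without length scaling, mean shares over the 6 libraries moved for Grin1 (62.2% to 57.8%), Grin2d (3.55% to 4.19%), Grin3a (2.40% to 3.90%), Gria1 (49.6% to 45.8%), Gria2 (35.8% to 41.5%) and Gria3 (11.8% to 10.2%). With union exon length they were 49.4% for Grin1, 11.8% for Grin2a (from 7.19%), 5.92% for Grin2d, 39.8% for Gria2 and 6.89% for Gria3. The GC correction, the crossed block and union length were chosen after seeing the data.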
